A study of Mus musculus with 3 samples.

Results

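A set of 8 genes of the contractile apparatus of smooth muscle and myofibroblasts were followed in spatial transcriptomes of healing skin wounds. They were taken by symbol, and all 8 were found among the 32285 genes of the count tables. *Acta2* encodes smooth muscle alpha-actin and *Actg2* smooth muscle gamma-actin. *Myh11* encodes smooth muscle myosin heavy chain, *Myl9* a regulatory myosin light chain, and *Tpm2* beta-tropomyosin. *Tagln* and *Cnn1* encode the actin-binding proteins transgelin and calponin 1, and *Lmod1* encodes leiomodin 1, which starts new actin filaments in smooth muscle.

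The samples were 3 skin wounds of C57BL/6J mice, all from full-thickness punch excisions of the back, taken at Day 3, Day 7 and Day 14 after injury. By the study's methods the animals were young adult males, and each day was 1 section of fresh frozen tissue. No separate sample of unwounded skin is analysed here. The paper labels intact skin and muscle beside the wound site on these sections, so the spots are not all wound tissue. In the Visium assay, RNA of the frozen section is caught on barcoded spots of a glass slide, and each captured molecule is counted once by its unique molecular identifier (UMI). A spot is a small region that can hold cells of several types. The spots marked as lying under tissue numbered 549 to 697 per section and held 1772259, 4442962 and 4611723 UMIs at Day 3, Day 7 and Day 14. That was 51.0%, 40.8% and 49.4% of all UMIs of the slide. The levels given below for a section are those of its marked spots. Skin and its underlying muscle were both present in each section, since the epidermal marker list (10 keratinocyte genes such as *Krt5* and *Krt14*) held 15890 to 52297 UMIs and the skeletal muscle list (10 genes of fast muscle fibres such as *Ckm* and *Myh4*) held 60981 to 245958. Hair follicle markers were nearly absent on Day 3 and Day 7, with 12 and 41 UMIs over the 9 of 10 listed genes that were measured, against 24276 on Day 14.

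With 1 section per day no difference between days could be tested, and the 95% intervals below cover counting error only. How much animals, sections or slides vary was not measured. Levels are pooled UMIs per 1000000 UMIs (CPM), and since only one end of each transcript is captured, levels of different genes are not compared with each other. A lower level in a section or a spot could reflect fewer cells of a type or less RNA per cell, which cannot be told apart.

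Smooth muscle cells of vessel walls and of the arrector pili muscles of the hair follicle contract through actin and myosin filaments of their own isoforms. Fibroblasts in a healing wound can acquire part of this apparatus and are then called myofibroblasts. Smooth muscle alpha-actin is the usual marker of both cell types, and transgelin is also made by both, whereas smooth muscle myosin heavy chain, calponin 1 and leiomodin 1 are held to mark mature smooth muscle. Periostin, encoded by *Postn*, is a matrix protein secreted by fibroblasts of granulation tissue, the new connective tissue that fills a wound. Serum response factor drives many contractile genes by binding the CArG box, a short motif with an A/T-rich core between CC and GG.

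The 8 genes lie on 7 chromosomes in the GENCODE M21 annotation of GRCm38 (mm10), and all are protein coding. *Acta2* lies on the minus strand of chromosome 19 from 34241090 to 34255590, and *Tagln* on the minus strand of chromosome 9 from 45929619 to 45936058. *Cnn1* is on the plus strand of the same chromosome, from 22099216 to 22109630. *Myh11* spans chromosome 16 from 14194535 to 14291372 (minus strand), and *Lmod1* chromosome 1 from 135324807 to 135368065 (plus strand). *Myl9* lies on chromosome 2 from 156775420 to 156781658 (plus strand), *Tpm2* on chromosome 4 from 43514711 to 43523765 (minus strand) and *Actg2* on chromosome 6 from 83512905 to 83536265 (minus strand).

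The promoters of 2 members whose level was more than 2-fold higher at Day 7 than at Day 3, *Acta2* and *Myl9*, and of 2 mature smooth muscle genes without such a difference, *Cnn1* and *Lmod1*, are shown from RefSeq (GRCm38.p6), from 250 bases before to 50 bases after the transcription start, 5′ to 3′ on the gene's strand. RefSeq promoter sequences were at hand for 5 of the 8 members, with no entry for *Tagln*, *Myh11* and *Actg2*. *Acta2* is from chr19:34255324-34255623, *Myl9* from chr2:156775214-156775513, *Cnn1* from chr9:22099003-22099302 and *Lmod1* from chr1:135324563-135324862. Capitals mark a CArG box, allowing 1 base other than A or T in its core, or the MCAT motif CATTCC, each searched on both strands. No 2 matches overlapped.
Acta2: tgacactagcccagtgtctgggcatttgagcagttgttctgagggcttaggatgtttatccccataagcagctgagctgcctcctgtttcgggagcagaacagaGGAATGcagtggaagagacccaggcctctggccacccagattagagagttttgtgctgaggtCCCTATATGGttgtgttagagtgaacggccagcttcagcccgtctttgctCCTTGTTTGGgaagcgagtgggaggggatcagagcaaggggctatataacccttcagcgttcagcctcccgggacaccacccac
Myl9: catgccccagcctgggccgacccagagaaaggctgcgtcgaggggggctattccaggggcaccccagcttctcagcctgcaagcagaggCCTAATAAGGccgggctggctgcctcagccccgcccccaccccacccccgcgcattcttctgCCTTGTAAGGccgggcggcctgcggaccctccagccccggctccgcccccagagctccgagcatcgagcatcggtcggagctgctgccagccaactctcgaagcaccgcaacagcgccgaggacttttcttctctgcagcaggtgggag
Cnn1: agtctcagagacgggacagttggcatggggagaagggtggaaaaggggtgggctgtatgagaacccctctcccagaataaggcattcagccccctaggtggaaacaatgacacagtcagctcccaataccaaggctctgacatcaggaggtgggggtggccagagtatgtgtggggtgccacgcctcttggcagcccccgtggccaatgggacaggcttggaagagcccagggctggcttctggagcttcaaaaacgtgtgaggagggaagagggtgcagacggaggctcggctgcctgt
Lmod1: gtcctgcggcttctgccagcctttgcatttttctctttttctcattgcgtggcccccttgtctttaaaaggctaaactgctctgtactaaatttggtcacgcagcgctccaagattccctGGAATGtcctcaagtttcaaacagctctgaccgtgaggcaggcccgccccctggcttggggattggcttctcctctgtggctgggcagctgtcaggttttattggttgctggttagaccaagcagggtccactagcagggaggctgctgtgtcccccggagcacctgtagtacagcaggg

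*Acta2* held 2 CArG boxes with 1 mismatch, CCCTATATGG starting at position -84 and CCTTGTTTGG at -34 from the transcription start, and 1 MCAT motif, read on the opposite strand, at -146. Positions are counted from the RefSeq start. For *Acta2* that start lies inside the GENCODE span, whose 5′ end is at 34255590, so another start would give other positions. *Myl9* held 1 CArG box without a mismatch, CCTAATAAGG at -161, and 1 with a mismatch, CCTTGTAAGG at -99. *Lmod1* held 1 MCAT motif, also on the opposite strand, at -130 and no CArG box, and *Cnn1* and *Tpm2* held neither motif in this window. Of 32851 RefSeq promoters of the same length, 1.63% held a CArG box without a mismatch, 8.50% held one with 1 mismatch and 14.7% held an MCAT motif. These matches are letters in a sequence, and binding was not measured. Boxes with a mismatch in the CC or GG were not searched for, so a promoter without a match can hold such a form. The promoters shown were picked by the levels of their genes and are few, so no link between motif and level is read from them.

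At Day 7 the levels of 4 members, *Acta2*, *Tagln*, *Myl9* and *Actg2*, were more than 2-fold above those of Day 3, and the mature smooth muscle genes *Myh11* and *Cnn1* did not pass that fold. *Acta2* had 165, 2105 and 803 UMIs at Day 3, Day 7 and Day 14. Its level on Day 7 was 5.09 times that on Day 3 (95% interval 4.34 to 6.00) and its level on Day 14 was 0.368 times that on Day 7 (0.338 to 0.399). *Acta2* was thus highest in the Day 7 section, and the intervals of the 3 levels did not overlap. *Tagln* had 54, 606 and 287 UMIs in the same order, a ratio of 4.48 (3.39 to 6.03) from Day 3 to Day 7 and of 0.456 (0.395 to 0.526) from Day 7 to Day 14. It was the 1 member still past 2-fold on Day 14 against Day 3, at 2.04 (1.52 to 2.78), an interval that reaches below 2. With scaling factors from edgeR (TMM) or DESeq2 its log2 ratio there was 0.93 or 0.90, under 2-fold. When CPM was averaged over spots with equal weight, the log2 ratio from Day 7 to Day 14 was -0.90 for *Tagln* and -0.77 for *Actg2*, also short of 2-fold, and -1.38 for *Acta2*.

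*Myl9*, whose product is phosphorylated to switch on smooth and non-muscle myosin, had 100, 889 and 357 UMIs, or 56.4, 200.1 and 77.4 CPM. The ratio was 3.55 (2.88 to 4.41) from Day 3 to Day 7 and 0.387 (0.341 to 0.438) from Day 7 to Day 14. *Actg2*, the actin of visceral smooth muscle, had 13, 136 and 62 UMIs, and its ratios were 4.17 (2.36 to 8.04) and 0.439 (0.320 to 0.597). Both genes thus peaked in the Day 7 section as *Acta2* did. *Acta2*, *Actg2* and the skeletal muscle actin *Acta1* are near-identical, and how reads were split between them is uncertain, which also bears on the *Acta2* counts of muscle-rich spots below.

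The genes of mature smooth muscle, *Myh11*, *Cnn1* and *Lmod1*, stayed within 2-fold between any 2 days. *Myh11* had 33.3 (25.3 to 42.9), 29.9 (25.1 to 35.5) and 21.9 CPM (17.8 to 26.6) in the order of the days. *Cnn1* had 10.2 (6.02 to 16.1), 14.4 (11.1 to 18.4) and 17.8 CPM (14.1 to 22.1). Both genes depended on how spots were weighted. With equal weight per spot the log2 ratio from Day 3 to Day 7 was 1.69 in place of 0.50 for *Cnn1*, past 2-fold, and 0.46 in place of -0.15 for *Myh11*. *Lmod1* had 13, 25 and 21 UMIs, too few for the minimum of 50 over both sections in any comparison. Summed, these 3 genes had 50.8, 49.97 and 44.2 CPM, and their intervals overlapped. The even sum holds opposite differences. From Day 3 to Day 14 the ratio was 0.658 (0.473 to 0.923) for *Myh11* and 1.75 (1.04 to 3.10) for *Cnn1*.

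*Tpm2*, which is used by skeletal as well as smooth muscle, had 1539, 1363 and 1658 CPM. Its ratio of Day 7 over Day 3 was 0.885 (0.846 to 0.927), but on the log2 scale it turned from -0.18 to 0.071 without the 20% of spots richest in skeletal muscle markers, a setting chosen after the data were seen. The plot of levels by day sets the 4 members that peaked on Day 7 beside the 4 that did not.

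**Figure D1:**
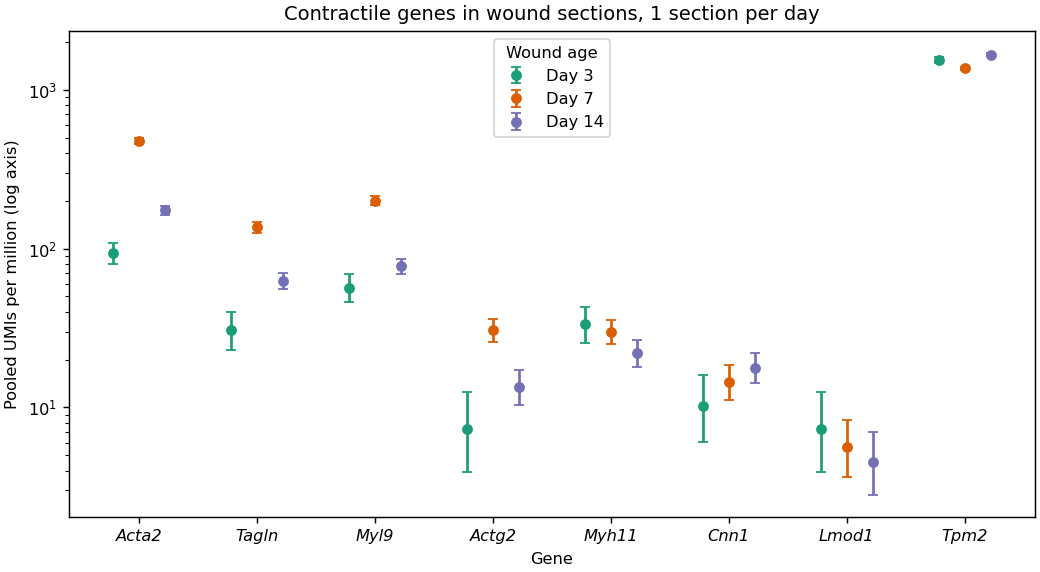
Pooled UMIs per 1000000 UMIs (log axis) of each of the 8 genes in the Day 3, Day 7 and Day 14 sections, with exact Poisson 95% intervals for counting error as bars. *Acta2*, *Tagln*, *Myl9* and *Actg2* were highest on Day 7, while *Myh11*, *Cnn1*, *Lmod1* and *Tpm2* had no ratio between days past 2-fold.

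Of the 7 members with enough UMIs, 4 were more than 2-fold higher and 0 more than 2-fold lower on Day 7 than on Day 3, where 8.04% and 6.49% of all 10541 genes passed the same fold upward and downward. From Day 7 to Day 14, 4 of 7 were more than 2-fold lower and 0 higher, beside 7.34% and 10.9% of all 11746 genes. From Day 3 to Day 14, 1 of 7 was higher and 0 lower, beside 14.4% and 6.83% of 10955 genes. The median log2 ratio of the members over these 3 comparisons was 1.83, -1.13 and 0.81, beside 0.04, 0.13 and 0.18 for all genes. These are counts of point ratios with no test, and the 3 comparisons share sections. The members were chosen with earlier results of these data known, so the shares of all genes are no test of them.

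The other genes of contraction and its control, also listed with earlier results of these data known, had smaller median ratios between days than the members. Of 28 listed genes, 24 had enough UMIs on Day 7 against Day 3, of which 4 were more than 2-fold higher and 0 lower, with a median log2 ratio of 0.60. The 4 were *Myh10*, a non-muscle myosin heavy chain (3.51 times, 2.21 to 5.89), *Cnn3*, a calponin of non-muscle cells (2.55 times, 2.17 to 3.00), *Pdlim7*, an actin-associated adaptor (2.46 times, 2.14 to 2.84), and *Csrp1*, a partner of actin-bound proteins (2.44 times, 2.07 to 2.89). From Day 7 to Day 14, 4 of 24 were more than 2-fold lower and 0 higher (median -0.31), namely *Csrp1* (0.447), *Myh10* (0.421), the actin-binding *Cald1* (0.469) and the myosin phosphatase inhibitor *Ppp1r14a* (0.417). From Day 3 to Day 14, 1 of 25 was higher, the tropomyosin *Tpm1*, which skeletal muscle also uses, at 2.51 times (2.44 to 2.59). Beside these counts, 8.04% of all genes were more than 2-fold higher on Day 7 than on Day 3. From Day 7 to Day 14, 7.34% of all genes were more than 2-fold lower, and from Day 3 to Day 14, 14.4% were higher. *Mylk*, the kinase that phosphorylates smooth muscle myosin light chains, had 53.6, 58.5 and 46.0 CPM.

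Set against the smooth muscle genes of the same section, *Acta2* had 1.83 UMIs per UMI of *Myh11*, *Cnn1* or *Lmod1* at Day 3 (1.41 to 2.40), against 9.48 (8.25 to 10.9) at Day 7 and 3.94 (3.37 to 4.61) at Day 14. *Tagln* had 0.600 (0.420 to 0.850), 2.73 (2.34 to 3.20) and 1.41 (1.17 to 1.69). *Myl9* had 1.11, 4.005 and 1.75, and *Actg2* 0.144, 0.613 and 0.304. Each ratio was highest on Day 7 and each Day 14 value lay between the other two. At the Day 3 ratio, the 222 smooth muscle UMIs of the Day 7 section would go with 407 *Acta2* UMIs, 19.3% of the 2105 counted, and with 133 of *Tagln*, 22.0% of the 606 counted. This is arithmetic on 3 single sections and assigns no molecule to a cell type. The order also depends on the gene chosen for the comparison. *Postn* had 239.8, 3692 and 550.1 CPM in the order of the days. Its ratio was 15.4 from Day 3 to Day 7 and 0.149 from Day 7 to Day 14. Both were larger changes than those of *Acta2*, *Tagln*, *Myl9* and *Actg2*, so per *Postn* UMI each of these would be lowest on Day 7. A list of 10 other genes of wound fibroblast matrix had 1212, 4572 and 1186 CPM.

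After each spot was thinned to 1000 UMIs, so that depth was equal, an *Acta2* UMI was found in 8.22% of 426 spots (5.79 to 11.2) at Day 3, in 32.6% of 525 (28.6 to 36.8) at Day 7 and in 15.2% of 679 (12.6 to 18.1) at Day 14. In the spots rich in markers of skeletal muscle, whose adult fibres lack this actin, the shares were 1.20% (0.0305 to 6.53), 18.4% (11.3 to 27.5) and 5.34% (2.18 to 10.7). Median depth before thinning was 2373, 7128 and 4948 UMIs over all spots kept, against 1708, 2502 and 2941 in the skeletal muscle-rich spots. For *Tagln* the shares were 3.99%, 11.6% and 5.45% of all spots and 0%, 7.14% and 3.82% of skeletal muscle-rich spots. With 0 of 83 spots on Day 3, a share up to 4.35% (upper exact binomial limit) is allowed. Unthinned, an *Acta2* UMI was found in 15.2%, 78.0% and 53.7% of marked spots. *Acta2* was thus found in a larger share of all spots than of skeletal muscle-rich spots, with intervals apart at Day 7 and Day 14 but not at Day 3, and its share in the skeletal muscle-rich spots was also highest at Day 7. For *Tagln* the intervals of the 2 kinds of spot overlapped on each day, so its shares are not read above that background. For *Myh11*, *Cnn1*, *Actg2* and *Lmod1* the thinned shares were at most 2.86% of all spots and their intervals overlapped those of skeletal muscle-rich spots, so no order is read from them.

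The next question was whether *Acta2* and *Tagln* went with the smooth muscle genes or with *Postn* from place to place in a section. Spots with at least 500 UMIs (520, 539 and 689) were split by *Postn* into the 20% with the highest *Postn* CPM and the rest, and in the same way by the sum of *Myh11*, *Cnn1* and *Lmod1*. On Day 3 only 57 spots held a UMI of these 3 genes, so the smooth muscle-rich set was those 57. Spots of 1 section are not replicates, and *Postn*, *Myh11*, *Cnn1* and *Lmod1* chose the spots, so their own values there are no result.

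On Day 3, *Acta2* and *Tagln* stood higher in the smooth muscle-rich spots than in the others. These 57 spots were deeper, with a median of 6054 against 1819 UMIs, and the part of depth in having any smooth muscle UMI was not tested. *Acta2* had 58 UMIs there, 166.5 CPM, against 74.0 CPM in the other spots, a ratio of 2.25 (1.60 to 3.13). *Tagln* had 24 UMIs, 68.9 against 21.3 CPM, a ratio of 3.23 (1.81 to 5.72), and *Myl9* had 47, 135.0 against 36.3 CPM, a ratio of 3.72 (2.45 to 5.64). Of the 4 members compared there with enough UMIs, these 3 were past 2-fold, beside 2.38% of all genes. Among the smooth muscle-rich spots, 1 held 8 of the 58 *Acta2*, 1 of the 24 *Tagln* and 11 of the 47 *Myl9* UMIs. The intervals treat UMIs as independent, and ratios without that spot were not computed. In the *Postn*-rich spots of Day 3 the ratio was 1.44 for *Acta2* (1.02 to 2.01), 0.937 for *Tagln* (0.461 to 1.78) and 1.01 for *Myl9* (0.616 to 1.61), and 0 of 5 members with enough UMIs were past 2-fold upward, beside 3.71% of all genes. The *Acta2* value depended on the split, since its log2 ratio in *Postn*-rich spots was 1.03 (0.42 to 1.60) with the highest 10% of spots and 1.504 (0.48 to 2.47) with spots thinned to 1000 UMIs, in place of 0.52. Thinned, the log2 ratio in smooth muscle-rich spots was 1.22 for *Acta2* (-1.12 to 2.87) and 2.56 for *Tagln* (0.13 to 4.38), so *Acta2* on Day 3 was not resolved as going more with one than with the other. The epidermal list was also higher in the smooth muscle-rich spots of Day 3, by 1.41 times (1.36 to 1.46), and that list gave a like ratio at Day 14, of 1.40 (1.38 to 1.43). The pericyte list (10 genes of the cells that wrap capillaries, such as *Rgs5*) was not resolved from 1 at Day 3, at 1.05 (0.894 to 1.23), and was 1.27 (1.17 to 1.37) in the smooth muscle-rich spots of Day 7. Their part in the result was not tested.

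On Day 7 the order of the 2 splits changed for *Tagln* and *Myl9*. The 108 smooth muscle-rich spots of that day held 108 UMIs of *Myh11*, 45 of *Cnn1* and 20 of *Lmod1*. Across the Day 7 spots these 3 genes had Pearson r of -0.02 to 0.01 with each other. *Tagln* had 345 UMIs in the *Postn*-rich spots, 222.7 CPM, against 90.3 CPM elsewhere, a ratio of 2.47 (2.09 to 2.91), while in the smooth muscle-rich spots the ratio was 1.29 (1.07 to 1.54). *Myl9* had ratios of 1.95 (1.70 to 2.23) and 1.24 (1.06 to 1.44). For *Acta2* the ratios were close, 1.52 (1.40 to 1.66) in *Postn*-rich and 1.42 (1.29 to 1.56) in smooth muscle-rich spots. *Tagln* was the 1 of 7 members with enough UMIs past 2-fold upward in *Postn*-rich spots, beside 1.65% of all genes, and 0 of 5 were past it in smooth muscle-rich spots, beside 0.308%. When each spot was thinned to 1000 UMIs the smooth muscle-rich ratios turned below 1 for *Acta2* (log2 -0.18, -1.26 to 0.73) and *Tagln* (log2 -0.83, -3.90 to 1.09), with intervals that hold both directions, so this depth could not resolve them. In *Postn*-rich spots the thinned log2 ratio was 0.93 for *Tagln* (0.11 to 1.71) and 0.27 for *Acta2* (-0.22 to 0.74), so that thinning left the *Acta2* ratio unresolved from no difference. *Postn*-rich spots were deeper on Day 7, with a median of 13464 UMIs against 5497, and held less of the skeletal muscle list, at 0.421 times the other spots. Without the 20% of spots richest in that list, the log2 ratios in *Postn*-rich spots were 0.66 for *Acta2* (0.53 to 0.78) and 1.297 for *Tagln* (1.06 to 1.54).

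On Day 14 *Tagln* was higher in the smooth muscle-rich and not in the *Postn*-rich spots, and the order for *Acta2* depended on the setting. In smooth muscle-rich spots *Acta2* had 214.0 against 157.6 CPM, a ratio of 1.36 (1.17 to 1.57), and *Tagln* 82.3 against 53.9 CPM, a ratio of 1.53 (1.20 to 1.95). In *Postn*-rich spots the ratios were 1.11 (0.930 to 1.33) and 0.868 (0.619 to 1.19), both with intervals that hold 1. In granulation-rich spots, chosen by 10 genes of wound fibroblast matrix other than *Postn*, *Acta2* was at 1.29 times (1.09 to 1.52) and *Tagln* at 0.862 (0.616 to 1.18). Thinned, the log2 ratio of *Acta2* was 0.53 (-0.13 to 1.16) in *Postn*-rich and 0.19 (-1.29 to 1.36) in smooth muscle-rich spots, and that of *Tagln* in the latter was 0.67 (-1.68 to 2.33), none of them resolved. The smooth muscle-rich spots were again deeper, with a median of 8858 against 4357 UMIs. No member was past 2-fold upward in either split, beside 2.6% of all genes for *Postn* and 0.279% for smooth muscle. With the highest 10% of spots *Tagln* was past it in smooth muscle-rich spots, at a log2 ratio of 1.37 (0.94 to 1.78) in place of 0.61.

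Each section was also divided into 4 classes of spots. On Day 7, 25 spots rich in both held 884.2 CPM of *Acta2* (789 to 988), 83 rich in *Postn* alone held 529.8 (489 to 573), 83 rich in smooth muscle genes alone held 472.3 (422 to 527), and the other 348 held 379.0 (354 to 405). Spots rich in both were thus the highest, and the 2 single classes had overlapping intervals. For *Tagln* the same classes held 290.9, 202.7, 99.0 and 87.7 CPM, and the smooth muscle-rich class (76.5 to 126) could not be told from the spots rich in neither (75.8 to 101). Of the 2103 *Acta2* UMIs in spots over 500 UMIs, 30.2% lay in spots rich in *Postn* alone, which held 27.0% of all UMIs, and 40.1% in spots rich in neither, which held 50.1%. On Day 3 the class order for *Acta2* was different, with 174.1 CPM in smooth muscle-rich spots, 146.5 in spots rich in both, 112.1 in *Postn*-rich and 61.4 in the rest. Only the rest stood clear of the smooth muscle-rich class by its interval.

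**Figure D2:**
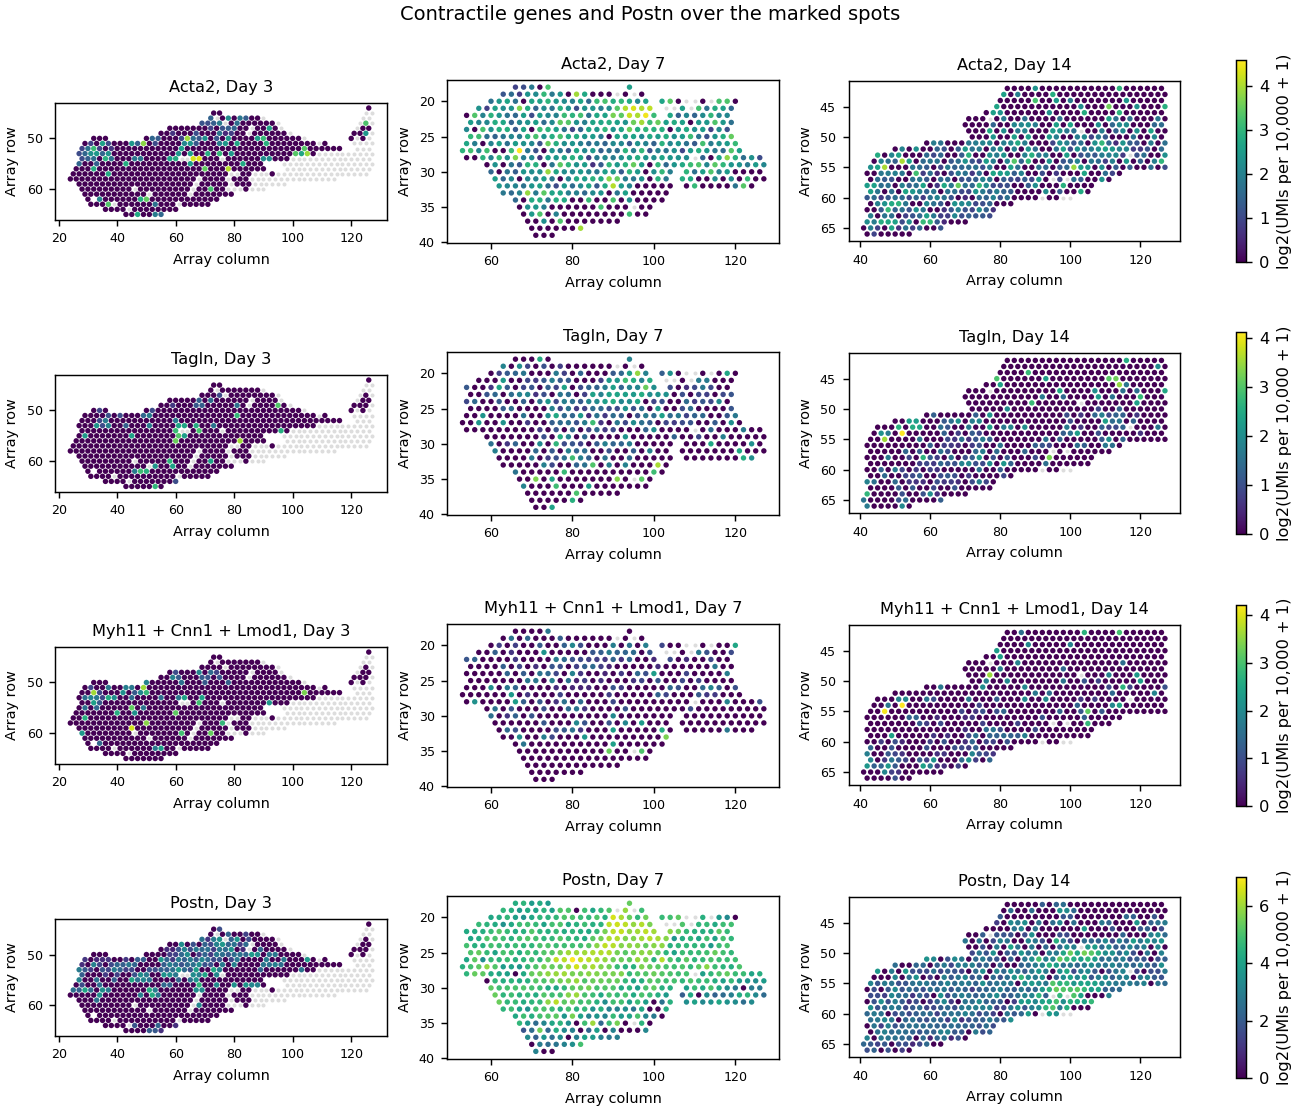
Each dot is a marked spot at its array row and column, coloured by log2(UMIs per 10000 UMIs + 1) of *Acta2*, *Tagln*, the sum of *Myh11*, *Cnn1* and *Lmod1*, and *Postn*, with 1 colour scale per gene over the 3 sections and spots under 500 UMIs in grey. *Acta2* was found over most of the Day 7 section. Of the 10 spots with the most *Acta2* UMIs there, 8 touched another of them. These 10 were chosen by count and were deep, with a median of 24776 UMIs against 6687 over the marked spots.

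Along *Postn* itself, *Acta2* on Day 7 had 259.3, 399.0, 427.4, 427.5 and 609.4 CPM in 5 bins of spots from the lowest to the highest *Postn*. *Tagln* was flat over the lower bins, with 98.0, 69.1, 92.9 and 102.3 CPM, and had 224.1 CPM in the highest. The smooth muscle sum had 15.8 CPM in the lowest bin and 45.6 to 57.5 CPM in the other 4. The lowest bin also held the most of the skeletal muscle list, 104159 CPM against 25039 in the highest, and its part in the low *Acta2* level was not tested. On Day 14 *Acta2* had 143.1 to 188.9 CPM over the bins and *Tagln* 40.9 to 78.3, and on Day 3 the lower 3 bins held 0 *Postn* UMIs, so their order carries nothing.

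**Figure D3:**
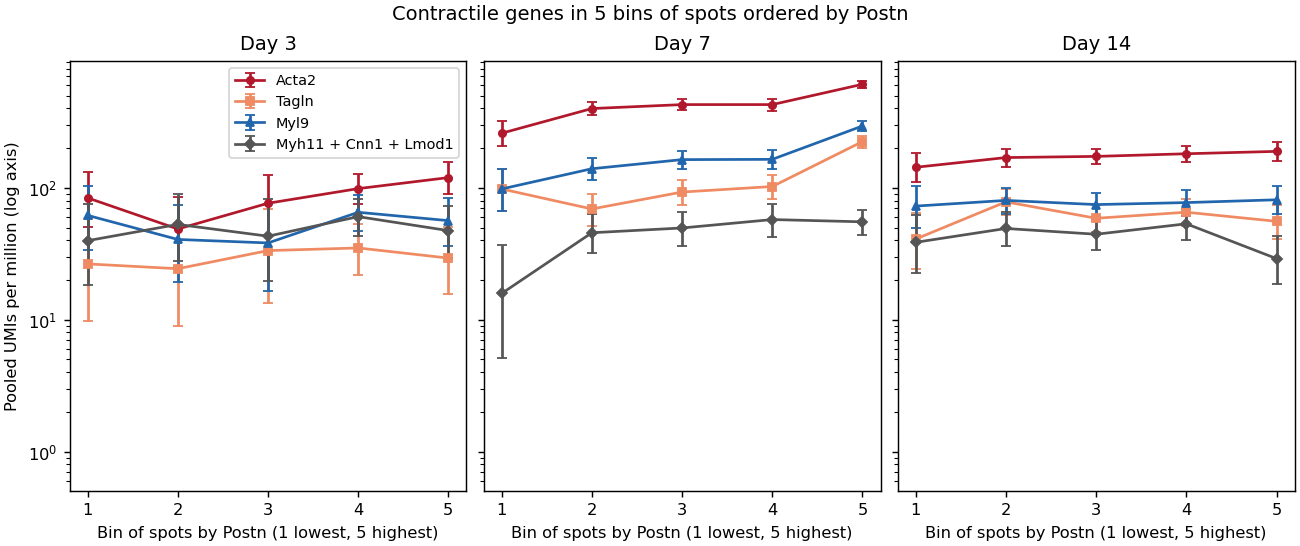
Pooled UMIs per 1000000 UMIs (log axis) of *Acta2*, *Tagln*, *Myl9* and the sum of *Myh11*, *Cnn1* and *Lmod1* in 5 bins of spots ordered by *Postn* within each section, with exact Poisson 95% intervals as bars. On Day 7 *Tagln* and *Myl9* stood highest in the bin richest in *Postn* while the smooth muscle sum changed little over bins 2 to 5; on Day 3 bins 1 to 3 had no *Postn* UMI.

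Per smooth muscle UMI in the same spots, *Tagln* on Day 7 had 4.01 (3.16 to 5.14) in *Postn*-rich and 1.92 (1.55 to 2.38) in other spots, 2.09 times as many (1.51 to 2.90). *Acta2* had 10.99 (8.80 to 13.9) against 8.51 (7.12 to 10.2), 1.29 times (0.964 to 1.73), an interval that holds 1. Without the spots richest in skeletal muscle markers, a setting chosen after the data were seen, the log2 ratio for *Acta2* was 0.52 (0.09 to 0.97). On Day 14 it was the *Acta2* interval that left out 1, with 6.58 against 3.58, 1.84 times (1.15 to 3.04), while *Tagln* had 1.92 against 1.34, 1.43 times (0.820 to 2.55). Without the skeletal muscle-rich spots the Day 14 log2 ratio for *Acta2* was 0.70 (-0.042 to 1.501), an interval that holds no difference. The Day 14 values rest on 24 smooth muscle UMIs in the *Postn*-rich spots, where *Acta2* CPM itself was at 1.11 times the other spots (0.930 to 1.33). *Myh11*, *Cnn1* and *Lmod1* CPM were at 0.732, 0.560 and 0.227 times there, each with an interval that holds 1. On Day 3 both intervals per smooth muscle UMI held 1, at 1.60 times (0.858 to 3.04) for *Acta2* and 1.04 times (0.430 to 2.45) for *Tagln*. Outside the *Postn*-rich spots, the *Acta2* ratio was 1.58 on Day 3 and 8.51 on Day 7. *Postn*-rich was set within each section, so the other spots are not alike in *Postn* between days. Those of Day 7 held 2391 CPM of *Postn*, against 704 and 1530 in the *Postn*-rich spots of Day 3 and Day 14.

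**Figure D4:**
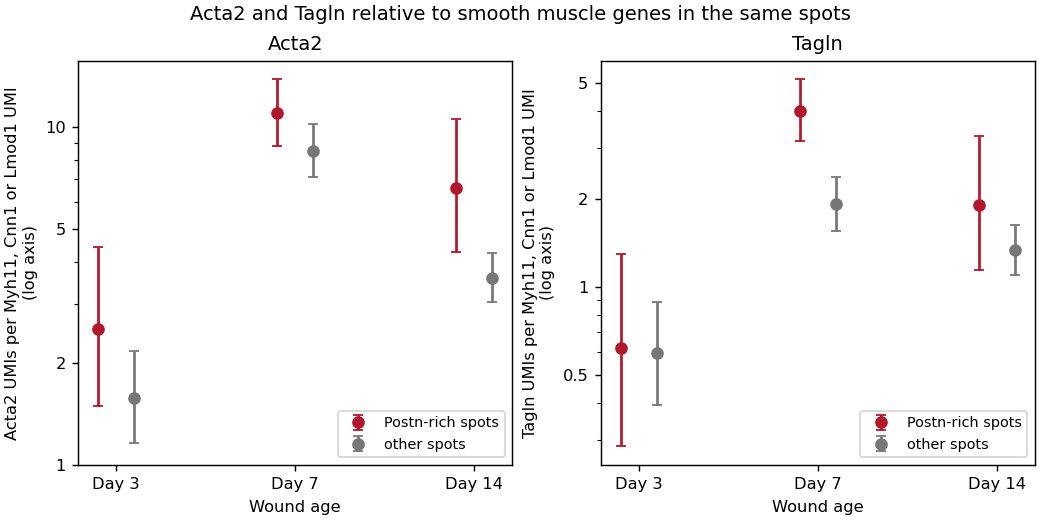
UMIs of *Acta2* (left) and *Tagln* (right) per UMI of *Myh11*, *Cnn1* or *Lmod1* in the same spots (log axis), in *Postn*-rich and other spots of each section, with exact conditional 95% intervals as bars. Both kinds of spot had their highest ratio on Day 7, and the intervals of the 2 kinds were apart for *Tagln* on Day 7 and for *Acta2* on Day 14. On Day 14 the CPM of *Acta2* itself was not resolved between the 2 kinds of spot. The split was made within each section, and the other spots of Day 7 held more *Postn* CPM than the *Postn*-rich spots of Day 3 or Day 14.

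The marker lists place the members among other tissues of the wound. *Tpm2* was the member that was higher in skeletal muscle-rich spots on every day with an interval clear of 1, with 6160, 5353 and 6293 CPM in the skeletal muscle-rich spots of the 3 sections against 1019, 1100 and 1206 CPM in the other spots, ratios of 6.04 (5.59 to 6.54), 4.87 (4.59 to 5.16) and 5.22 (4.97 to 5.47). In *Postn*-rich spots *Tpm2* was lower on each day, at 0.391, 0.437 and 0.766 times the other spots. *Acta2* was lower in the skeletal muscle-rich spots, at 0.175, 0.522 and 0.372 times.

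The granulation list, which holds *Tnc* and *Cthrc1* among others, was also used to choose spots on Day 7, with ratios of 2.58 for *Tagln* (2.19 to 3.04), 2.11 for *Myl9* (1.85 to 2.42), 1.74 for *Acta2* (1.60 to 1.90), 1.80 for *Cnn1* (1.07 to 3.04) and 1.57 for *Actg2* (1.10 to 2.23). In the *Postn*-rich spots the intervals of *Cnn1* (0.974 to 2.77) and *Actg2* (0.941 to 1.92) had held 1, and *Myl9* had been under 2-fold. *Myh11* was at 0.848 (0.568 to 1.24) in granulation-rich spots. In pericyte-rich spots of Day 7 the ratio was 1.54 for *Acta2* (1.39 to 1.70), 1.29 for *Tagln* (1.05 to 1.57) and 1.75 for *Myh11* (1.15 to 2.61). On Day 3 none of these 3 was resolved from 1 in pericyte-rich spots, and on Day 14 *Myh11* was, at 1.86 (1.12 to 2.97). *Lmod1* had ratios of 2.87 (1.12 to 6.90) and 3.67 (1.32 to 9.55) there on Day 7 and Day 14, from 9 of 25 and 8 of 21 UMIs.

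The rarer smooth muscle genes were also unevenly spread over other lists. On Day 3, 16 of the 18 *Cnn1* UMIs in spots over 500 UMIs lay in the epidermis-rich spots, a ratio of 14.3 (3.35 to 128), and 34 of 59 *Myh11* UMIs lay there, a ratio of 2.42 (1.40 to 4.24). On Day 14, 13 of 21 *Lmod1* UMIs lay in endothelium-rich spots, a ratio of 9.64 (3.70 to 26.8). A single spot of that section held 5 *Lmod1* UMIs, together with 11 UMIs of *Acta2*, 12 of *Tagln*, 7 of *Myh11* and 0 of *Postn* among its 7325 UMIs. On Day 3, 5 of 13 *Lmod1* UMIs lay in skeletal muscle-rich spots, a ratio of 5.80 (1.49 to 20.1). In hair follicle-rich spots, defined on Day 14 only, *Acta2* was at 1.29 times (1.12 to 1.499) and *Tagln* at 1.53 times (1.20 to 1.95) the other spots.

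**Figure D5:**
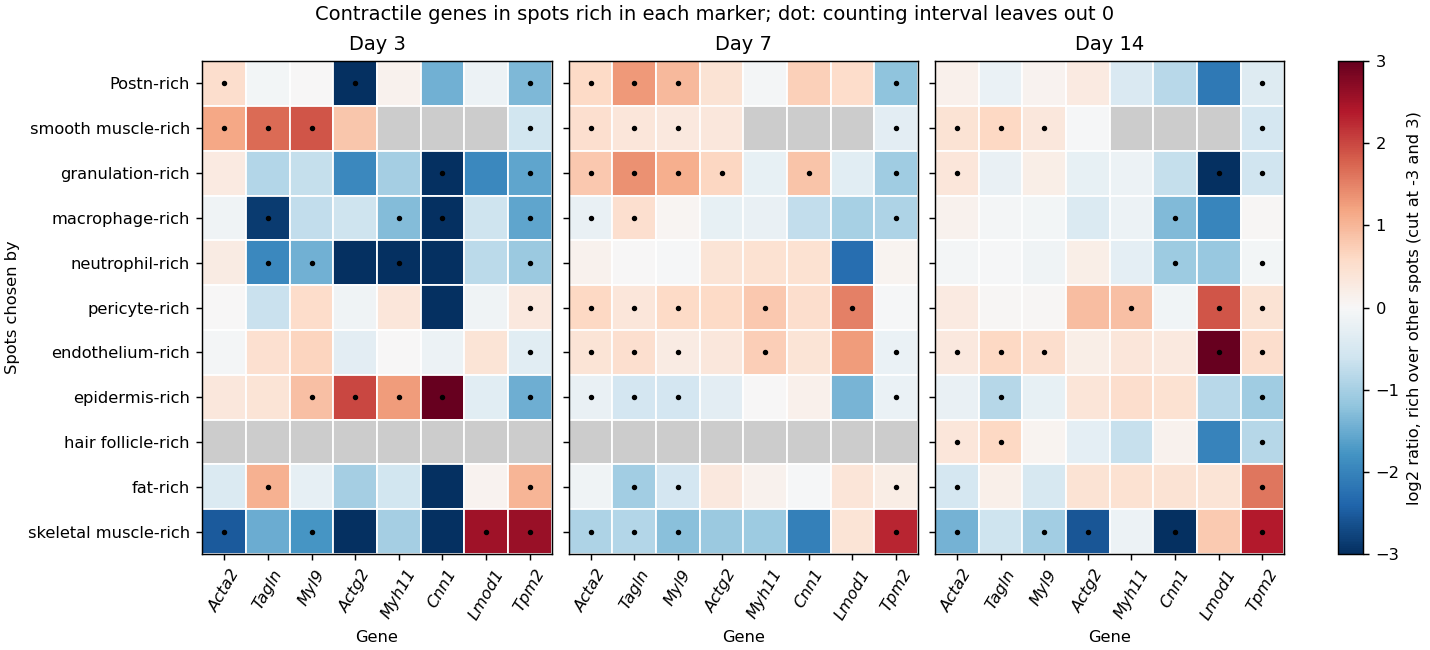
Colour gives the log2 ratio of pooled CPM in the 20% of spots richest in each marker over the other spots, for each gene (columns), marker (rows) and section, cut at -3 and 3, and a dot marks a counting interval that leaves out 0. Grey cells were not computed or hold a gene that chose the spots; *Tpm2* was positive in skeletal muscle-rich spots on each day, and *Acta2*, *Tagln* and *Myl9* were positive in *Postn*-rich and granulation-rich spots on Day 7.

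The 10 spots with the most *Acta2* UMIs were chosen by count and not per UMI. They were deep, with medians of 8190, 24776 and 12991 UMIs on Day 3, Day 7 and Day 14. Over all marked spots the medians were 1513, 6687 and 4827, and the part of depth was not tested. On Day 7 these 10 spots held 15.8% of all *Acta2*, with 20 to 43 UMIs each, in 5.59% of the section's UMIs. Together they had 1661 UMIs of *Postn*, 93 of *Tagln* and 22 of *Myh11*, *Cnn1* and *Lmod1*. Relative to the whole section, *Postn* was 1.81 times, the endothelium list 1.78 times and the smooth muscle sum 1.77 times as high there. On Day 3 the 10 top spots held 3 to 8 *Acta2* UMIs each, with 40 UMIs of *Postn* (1.81 times the section) and 20 of the smooth muscle genes (4.27 times). On Day 14 they held 7 to 12 each, with 77 of *Postn* (1.08 times) and 30 of the smooth muscle genes (5.21 times). In the order of the days, 1 of the 10 spots held 7 of the 20, 5 of the 22 and 13 of the 30 smooth muscle UMIs. Without it, a setting chosen after the data were seen, the smooth muscle sum was 2.97, 1.58 and 3.13 times the section at Day 3, Day 7 and Day 14.

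Correlations across spots are descriptions, since spots share a slide and differ in depth, and in such sparse counts weak values carry little. Over genes with at least 100 UMIs in every section, the 5 whose pattern was most like that of *Acta2* were the collagens *Col1a1*, *Col1a2* and *Col3a1*, the fatty acid binding protein *Fabp5* and the matrix protein *Sparc*, with a mean Pearson r of 0.27 to 0.32 over the 3 sections. For *Tagln* they were *Myl9* (0.24), *Acta2* (0.20), *Cald1* (0.18), *Csrp1* (0.17) and the respiratory chain subunit *Cox8a* (0.17). For *Myh11*, *Acta2* was first (0.17), followed by *Tspan4*, *Mfap4*, *Col1a2* and *Ly6a* (0.13 to 0.14). Among 13078 genes on Day 7, *Postn* was the 3rd most like *Acta2* (r = 0.43, 539 spots) and the 20th most like *Tagln* (r = 0.25), whereas *Myh11* ranked 2304th and 2037th. For *Myh11* itself *Postn* was 136th that day (r = 0.15), *Lmod1* 9930th (r = -0.01) and *Cnn1* 10926th (r = -0.02). *Myh11*, *Cnn1* and *Lmod1* had 133, 64 and 25 UMIs that day, too few for such values to tell whether they went together. These ranks therefore do not set *Postn* against smooth muscle. For *Myh11* on Day 14, *Lmod1* was 1st (r = 0.27) and *Cnn1* 663rd (r = 0.08). On Day 3 and Day 14, *Myh11* was 1st of 11333 and 2nd of 13386 genes for *Tagln* (r = 0.26 and 0.22), and *Postn* was 771st and 6480th. In the Day 14 section 1 spot held 12 of the 287 *Tagln* and 7 of the 101 *Myh11* UMIs, and ranks without it were not computed. For *Acta2*, *Postn* was 32nd on Day 3 and 2052nd on Day 14. On the same days *Myh11* was 3rd and 669th for *Acta2*, *Cnn1* 50th and 103rd, and *Lmod1* 8011th and 793rd.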

How the data were processed

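Spatial counts were analysed from 3 wound sections, 1 per day, grouped by the time in the sample labels. The authors made the deposited values with Space Ranger (1.3.0, mm10, per the submitters' processing notes) as raw UMI counts per gene and spot, without normalization, and the deposited position lists mark spots under tissue. Capture is at one transcript end, and counts of near-identical paralogs are uncertain. UMIs were summed over marked spots and divided by the total. Intervals were exact Poisson, conditional binomial or Clopper-Pearson at 95%, tested on simulated counts; no test was run with n = 1. Rich spots were the highest 20% by CPM among spots with at least 500 UMIs. A marker list was used on a day with at least 100 UMIs. Genes needed 50 UMIs over both groups to count as past 2-fold. The genes named were the members, *Postn*, the listed marker genes and the 5 genes most alike by Pearson r of log1p UMIs per 10000 to *Acta2*, *Tagln* and *Myh11*. Other contractile genes were named after their values were seen, where they passed 2-fold, and *Mylk* was named although it did not. The members and lists were chosen with earlier results of these data known. Alternatives, including TMM factors (edgeR 4.0.16) and size factors (DESeq2 1.42.0), are described below. Gene positions came from GENCODE M21. Python 3.11.15, numpy 2.4.6, scipy 1.17.1, pandas 2.3.3, matplotlib 3.10.9 and R 4.3.3 were used. Deconvolution and histological annotation were not used here. A result for 1 gene of the contractile list is not reported here.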

Additional observations from a re-analysis of the deposited data

Results flagged for a closer look

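UMIs of the members were also counted at spots that are not marked as tissue and that enter no comparison above. On Day 3, Day 7 and Day 14 these were 145, 1665 and 460 UMIs for *Acta2*, 73, 408 and 208 for *Tagln*, 101, 718 and 281 for *Myl9*, 20, 135 and 64 for *Myh11*, 9, 42 and 48 for *Cnn1*, 15, 18 and 21 for *Lmod1*, and 4394, 12974 and 10526 for *Tpm2*. For *Actg2* they were 83 on Day 7 and 30 on Day 14. Per UMI, the *Acta2* level outside the marked spots was 0.914 (95% interval 0.726 to 1.15), 0.544 (0.510 to 0.581) and 0.560 times (0.499 to 0.629) that inside. *Tpm2* was higher outside than inside on each day, by 1.68, 1.47 and 1.35 times. In all, the unmarked spots held 1703210, 6457066 and 4715272 UMIs in the order of the days. Whether tissue lay under them was not examined here.

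For 5 combinations of member and marker list, the counting intervals lay on opposite sides of no difference on different days; the difference between days was not tested. *Tagln* in fat-rich spots had a log2 ratio of 1.06 on Day 3 and -1.05 on Day 7. *Tagln* in macrophage-rich spots had -2.86 on Day 3, from 2 UMIs, and 0.50 on Day 7. *Myl9* in epidermis-rich spots had 0.89 on Day 3 and -0.55 on Day 7. *Tpm2* in endothelium-rich spots had -0.34 on Day 3, -0.20 on Day 7 and 0.52 on Day 14. *Cnn1* in granulation-rich spots had 0 UMIs on Day 3 against 18 elsewhere, and a log2 ratio of 0.85 on Day 7.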

How the results depend on the processing

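No paired analysis was possible because each day is 1 section and the labels hold no replicate numbers, and no replicate could be left out. The count of members more than 2-fold higher on Day 7 than on Day 3 was 4 or 5 under every alternative run. From Day 7 to Day 14 the mean of spot CPM gave 2 lower members in place of 4. For Day 14 over Day 3 the 1 higher member became 3 with the mean of spot CPM and 0 with TMM factors, with DESeq2 size factors and without the spots richest in skeletal muscle markers (chosen after seeing the data). The mean of spot CPM also moved the median log2 ratio of all genes on Day 7 against Day 3 from 0.04 to 0.27. With no gene minimum the share of all genes past 2-fold was 19.6% higher and 15.1% lower (Day 7 over Day 3), 18.8% and 15.5% (Day 14 over Day 7), and 24.4% and 14.5% (Day 14 over Day 3). In the other contractile list, counting all spots of the slide gave 2 higher on Day 7 and 2 lower from Day 7 to Day 14, and the mean of spot CPM gave 1 lower on Day 7, 2 lower from Day 7 to Day 14 and 4 lower on Day 14 against Day 3. *Tpm2* reversed to log2 0.071 on Day 7 over Day 3 without the skeletal muscle-rich spots, and on Day 14 over Day 3 to -0.11 (mean of spot CPM), -0.073 (all spots) and -0.024 (DESeq2). *Myh11* on Day 14 over Day 3 reversed to 0.076 with the mean of spot CPM.

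With the highest 10% of spots, the log2 ratio in *Postn*-rich spots was 1.03 for *Acta2* on Day 3 and 0.77 on Day 7, and in smooth muscle-rich spots 0.31 for *Acta2* on Day 7, 0.68 on Day 14 and 1.37 for *Tagln* on Day 14. *Tpm2* in skeletal muscle-rich spots was then 2.50 on Day 7 and 2.04 on Day 14. Thinned to 1000 UMIs, *Postn*-rich ratios were 1.504, 0.27 and 0.53 for *Acta2* on Day 3, Day 7 and Day 14, and 0.93 and -1.63 for *Tagln* on Day 7 and Day 14. Smooth muscle-rich ratios were 2.56 for *Tagln* on Day 3 and 0.19 for *Acta2* on Day 14, and reversed to -0.18 (*Acta2*) and -0.83 (*Tagln*) on Day 7. Split by *Myh11* alone, *Acta2* on Day 14 was at 0.20. Split by the granulation list, *Acta2* on Day 7 was at 0.80 and its ratio per smooth muscle UMI on Day 3 at 1.79. Per *Cnn1* and *Lmod1* UMI, *Acta2* on Day 7 was at -0.066. Of the 5 partners named, rank correlation kept 3 for *Tagln* and 1 for *Myh11*, and thinning kept 2 for *Acta2*, 1 for *Tagln* and 0 for *Myh11*. The cause of these changes was not tested.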
